A study of Mus musculus with 7 samples.

Results

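Zfp750 knockout was compared with control within the skin libraries that were rich in leukocyte transcripts, 4 of the 7 libraries of the series. A library was kept where Ptprc, the gene of the leukocyte antigen CD45, stood at 100 or more per M (mega, as in megareads) of the column total of its library. This kept Zfp750_KO 3F and 6F and control 4M and 7F, called CD45-rich here, and left out Zfp750_KO 1M and 2M and control 4F, called CD45-poor. Ptprc stood at 474 and 700.3 per M in control 4M and 7F and at 1247 and 982 per M in Zfp750_KO 3F and 6F. The library just inside the threshold was control 4M, and the library just outside it was Zfp750_KO 1M with 40.1 per M, followed by 39.2 in Zfp750_KO 2M and 4.46 in control 4F. Cd74, the invariant chain that escorts MHC class II molecules, stood at 5330 and 6451 per M in control 4M and 7F and at 7800 and 8943 per M in Zfp750_KO 3F and 6F. The CD45-poor libraries had 72.8 to 459 per M of Cd74, so both markers fit the name of the set. The libraries were chosen by the measured values of Ptprc, so these and those of Cd74 are a description with no test. Both were higher in each Zfp750_KO library than in each control, so the rule did not make leukocyte content equal between the groups.

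The study measured gene expression by bulk RNA-seq in skin cells that were sorted for the red fluorescent protein tdTomato on day 36. Per the labels all mice carried 1 copy of Lrig1-CreERT2, a Cre recombinase that Lrig1 drives and tamoxifen switches on, and all received 4-hydroxytamoxifen between day 4 and 7 or between day 5 and 8 of age. The knockouts were floxed on both alleles of Zfp750, and their controls were floxed on 1 allele or wild type for it. Mice were Rosa26 +/- apart from 1 knockout given as Rosa26 -/-, and neither that knockout nor the wild-type control can be tied to a library. The Cre limits the model, since the floxed alleles are recombined only in cells that have expressed Lrig1 and in their progeny, while other cells of a sort keep them. Whether every library is a separate animal is not stated in the labels, and the p-values therefore reflect spread among libraries that may be technical.

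Zfp750, known as ZNF750 in humans, is a zinc finger transcription factor that drives the terminal differentiation of keratinocytes. Lrig1 marks stem cells of the junctional zone, the part of the hair follicle beside the sebaceous gland. Skin also holds resident macrophages, dendritic cells and Langerhans cells, which take up and present antigen, and T cells, among which regulatory T cells gather around hair follicles and restrain inflammation.

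The 4 CD45-rich libraries held between 9.09 and 15.2 M reads, recovered from the values as multiples of what 1 read is worth. No pair looked like a repeat of 1 library, since 38.6% to 62.7% of genes over 20 reads differed beyond counting noise. The libraries also differ in sex-linked transcripts. Control 4M held Y-linked RNA, with Ddx3y at 810 and Uty at 407, together with 3318 of Xist, the RNA of the inactive X chromosome. Xist was at 46440 in control 7F and at 55720 and 47460 in Zfp750_KO 3F and 6F, and at 6.24 and 0.966 in Zfp750_KO 1M and 2M. Control 7F held traces of 2 Y-linked genes, Kdm5d at 10.1 and Ddx3y at 4.50. Both CD45-rich Zfp750_KO libraries are named F, whereas the controls are 1 named M and 1 named F, so leaving out control 4M leaves libraries named F alone. In a bulk sample fewer cells of a type and less RNA per cell cannot be told apart, and this holds for every result here.

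The targeted gene, Zfp750 (ENSMUSG00000039238, chromosome 11), checks the labels. Its normalized values were 51.2 and 61.9 in control 4M and 7F and 10.1 and 29.6 in Zfp750_KO 3F and 6F, from 39, 55, 9 and 43 reads. Both Zfp750_KO libraries were below both controls, and the groups did not overlap, as in 54.4% of all tested genes. On the log2(value + 11.9) scale, on which all log2 differences here are given as Zfp750_KO minus control, the difference was -1.17 ± 0.38 (SE), with an adjusted p of 0.0715 in the limma fit over all genes. A two-sided exact permutation test gave p = 0.333, below which 6 possible splits cannot go. Without Zfp750_KO 6F the difference was -1.63 with an adjusted p of 0.0115, and without control 4M, control 7F or Zfp750_KO 3F the adjusted p was 0.202, 0.262 and 0.274. Without the filter it was 0.131, and in a fit of all 7 libraries in 4 groups the adjusted p was 0.048. Set against Krt5, a keratin of basal keratinocytes, the values were 5.14% and 4.32% in the controls and 1.40% and 1.79% in Zfp750_KO. In the CD45-poor libraries the share was 2.28% in control 4F and 0.401% and 0.954% in Zfp750_KO 1M and 2M. These shares are a description with no test, and they also vary among the controls. Tbcd encloses Zfp750 on the other strand, and how the counting treated strand is not given in the sources used here, so reads of the 2 genes cannot be told apart. Lrig1 (ENSMUSG00000030029, chromosome 6), the gene whose promoter drives the Cre, was at 536 and 472 in the controls and 299.8 and 445 in Zfp750_KO (-0.45 ± 0.22, adjusted p = 0.243).

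Across all genes, 18557 passed the filter of at least 1 per M in at least 2 of the 4 libraries. Of these 853 (4.6%) were higher in Zfp750_KO and 1187 (6.4%) lower, with limma adjusted p-values under 0.05, together 2040 genes or 11% of those tested. Every count of list members below is to be read beside these shares. The median log2 difference of all tested genes was 0.04. Calls that were higher made up 41.8% of all calls, but 57.0% when the values were rescaled to the same column total, which gave 1287 higher and 970 lower and moved the median of all genes by 0.11. None of the 2040 genes changed its direction in any of the 14 alternative settings, but many of these could not have reversed a gene. Other filters, moderation, the threshold and the 7-library fit keep the fitted difference. Leaving out a library or changing the pseudocount cannot reverse a gene whose groups do not overlap. The counts rested on single libraries: 241 were higher and 367 lower without control 4M, 473 and 695 without control 7F, 735 and 1105 without Zfp750_KO 3F, and 1421 and 1564 without Zfp750_KO 6F. Of the 2040 genes, 512 passed in all 4 of these fits and 53 in none. Against a difference of at least 1 on the log2 scale, 17 genes were higher and 24 lower.

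The 12 rises with the largest differences included genes of myeloid cells and of activated T cells. F7 (ENSMUSG00000031443, chromosome 8), the coagulation factor VII, was at 17.1 and 49.5 in control 4M and 7F and at 576 and 553 in Zfp750_KO 3F and 6F, a log2 difference of 3.77 ± 0.34 (SE, adjusted p = 0.000266). Its partner F10 (ENSMUSG00000031444, chromosome 8), coagulation factor X, which macrophages also make, was at 165 and 147 in the controls and at 864 and 868 in Zfp750_KO (2.39). Nrg1 (ENSMUSG00000062991, chromosome 8), the ERBB receptor ligand neuregulin, was at 59.1 and 66.4 against 1036 and 700.4 (3.53 ± 0.24, adjusted p = 8.34e-05). In these 3 genes each Zfp750_KO library stood at least 5 times above both controls.

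Several of the other large rises encode receptors and products of myeloid cells. The activating myeloid receptors Tarm1 and Clec4n (Dectin-2) rose by 3.22 and 3.20 and the myeloid receptor Cd300lf by 3.03. Alox15, the lipoxygenase of resident and alternatively activated macrophages, rose by 3.14, and Chil3, the chitinase-like protein Ym1, by 3.11 from 7.88 and 12.4 to 251 and 124. Osm, the cytokine oncostatin M, rose by 2.82 and Ccl17, a chemokine that attracts CCR4-bearing T cells, by 2.85. Mucl1, a mucin-like gene of glands, rose by 3.30 and Plet1, a surface protein of hair follicle progenitors and of some dendritic cells, by 2.91. Il2ra, the high-affinity chain of the interleukin-2 receptor, closed the 12 largest rises with 2.76. All 12 passed without any 1 of the 4 libraries, and Mucl1 was the only one of them to miss the test against a difference of at least 1.

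**Figure D1:**
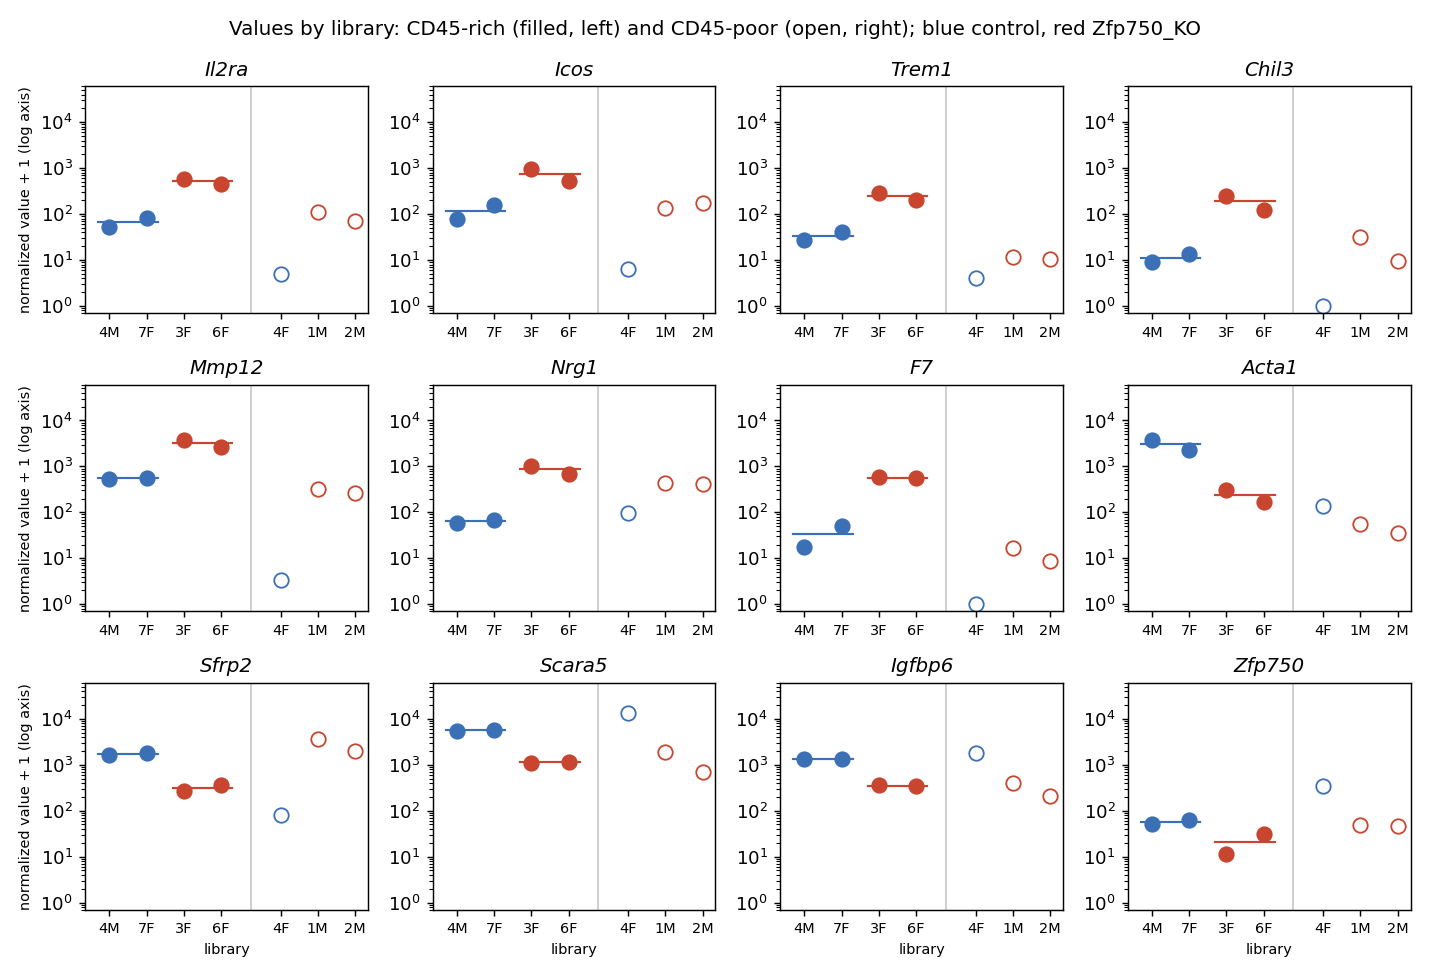
Normalized value plus 1 (log axis) of 12 genes in each library, with CD45-rich libraries as filled points on the left, CD45-poor libraries as open points on the right, controls in blue, Zfp750_KO in red and lines at the mean of each CD45-rich group. In the CD45-rich libraries the groups are apart in all 12 genes, as in 54.4% of all tested genes. Sfrp2 stands lower in Zfp750_KO there and higher in the CD45-poor libraries.

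Most genes of the T cell list rose. Of 23 tested T cell genes 17 rose, none fell and 6 did not pass, with a median log2 difference of 1.40 against 0.04 over all genes, and all 23 differences were above 0. The summed level of the list was 144 and 185 per M in the controls and 510.4 and 432 per M in Zfp750_KO. Trac, the constant region of the T cell receptor alpha chain, was at 28.9 and 37.1 in control 4M and 7F and at 189 and 116 in Zfp750_KO 3F and 6F (1.84). Cd6, a T cell adhesion receptor, was at 30.2 and 51.7 against 335 and 298 (2.66 ± 0.29 SE, adjusted p = 0.000608), the largest difference of the list. The costimulatory receptor Cd28 rose by 2.29, the kinase Lck by 2.20 and the kinase Zap70 by 1.93. Both Zfp750_KO libraries were above both controls in each, while groups did not overlap in 54.4% of all tested genes. Cd4 and Cd8a, the coreceptors of helper and cytotoxic cells, were at 0.67 and 0.88 and did not pass. The count was 7 without control 4M, 11 without control 7F, 13 without Zfp750_KO 3F and 17 without Zfp750_KO 6F.

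Genes of regulatory T cells had the highest median of all lists examined. Of 14 tested, 10 rose, none fell and 4 did not pass (71.4% called, against 11% of all genes), with a median of 1.85. Foxp3, the transcription factor that defines these cells, was at 52.0 and 64.7 in control 4M and 7F and at 244 and 221 in Zfp750_KO 3F and 6F (1.80 ± 0.26 SE, adjusted p = 0.00222). Il2ra (ENSMUSG00000026770, chromosome 2) was at 52.5 and 82.1 against 572 and 462 (2.76 ± 0.26, adjusted p = 0.000376). Tnfrsf9 (ENSMUSG00000028965, chromosome 4), the costimulatory receptor 4-1BB, was at 24.9 and 34.9 against 246 and 245 (2.63 ± 0.28). In all 3 genes the 2 libraries of a group lay close to each other and far from the other group. Icos, a costimulatory receptor, rose by 2.53, the inhibitory receptor Ctla4 by 2.28, the chemokine receptor Ccr8 of skin-homing regulatory T cells by 2.12, and the OX40 receptor Tnfrsf4 by 2.06. Il10, their anti-inflammatory cytokine, was at 148 and 145 in the controls and 177 and 143 in Zfp750_KO, and the groups overlapped (0.11, adjusted p = 0.837). Between 8 and 11 of the 14 rose in the fits without 1 library.

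Il2ra and Tnfrsf9 are textbook targets of NF-kB, and the 250 bases before their starts are shown because the κB motif is present in both. Sequences are from RefSeq on build GRCm38.p6 and run 5′ to 3′ on the strand of the gene. Capitals mark matches to the NF-kB consensus, the κB motif, searched on both strands, and in Tnfrsf9 they hold 2 overlapping matches. The regions are chr2:11642542-11642791 on the plus strand for Il2ra and chr4:150927749-150927998 on the plus strand for Tnfrsf9.

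Il2ra: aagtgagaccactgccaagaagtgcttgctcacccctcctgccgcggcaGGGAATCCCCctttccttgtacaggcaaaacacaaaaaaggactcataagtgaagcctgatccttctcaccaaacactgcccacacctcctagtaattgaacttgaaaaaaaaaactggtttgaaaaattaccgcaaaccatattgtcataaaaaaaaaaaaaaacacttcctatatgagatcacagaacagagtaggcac
Tnfrsf9: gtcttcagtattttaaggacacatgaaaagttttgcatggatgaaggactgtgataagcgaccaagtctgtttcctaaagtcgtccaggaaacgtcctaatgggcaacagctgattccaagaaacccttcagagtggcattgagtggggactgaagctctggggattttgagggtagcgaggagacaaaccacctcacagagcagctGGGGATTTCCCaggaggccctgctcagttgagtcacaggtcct

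Of the 21 genes that rose in the lists for regulatory T cells, mature dendritic cells and the TNF family, 19 matched a RefSeq promoter by symbol. The 21 include Il12b and Tnfsf11, which passed the filter only through Zfp750_KO and did not hold the motif. The motif was found in 3 of the 19 (15.8%), the third being Ltb, the lymphotoxin beta gene, against 4.71% of all 27025 genes with a promoter and 4.11% of all 32851 promoters of the same length. With so few matches this describes the windows searched and shows no site in use.

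In other lymphocyte lists fewer genes passed the test. Of 17 cytotoxic and natural killer cell genes 4 passed the filter on low values only through the Zfp750_KO libraries, and of the other 13 genes 4 rose and none fell. Il2rb, the beta chain of the interleukin-2 and interleukin-15 receptors, was at 281 and 396 in control 4M and 7F and at 1248 and 939 in Zfp750_KO 3F and 6F (1.66), and Gzmb, the protease granzyme B, was at 0 and 15.8 against 48.5 and 33.8 (1.53). Of 15 genes of gamma-delta and IL-17 T cells 5 rose and none fell (median 0.97), among them the chemokine receptor Ccr6 by 1.78, the IL-18 receptor Il18r1 by 1.59 and the IL-7 receptor Il7r by 1.53. Il17a itself was at 7.88 and 24.8 in the controls and 87.9 and 12.4 in Zfp750_KO. The groups overlapped in Il17a, since control 7F was above Zfp750_KO 6F (0.87, adjusted p = 0.391), and the gene passed only without Zfp750_KO 6F (1.89, adjusted p = 0.011). Ifng, the interferon of T and natural killer cells, overlapped as well (0.54, adjusted p = 0.517). In B and plasma cells 1 of 7 genes (14.3%, near the 11% of all genes) rose, Cd22, by 1.26, and it passed in none of the fits without 1 library. No count over all 17 genes of the cytotoxic list is drawn, since the filter fixed the direction of 4 of them. Across the alternative settings Il2rb ranged from 1.42 to 1.90 and Gzmb from 0.58 to 2.54.

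Pan-leukocyte and macrophage genes were higher by a smaller factor. Of 16 pan-leukocyte genes 9 rose and none fell, with a median of 0.82, where 4.6% of all tested genes rose. Ptprc, which chose the libraries, is in the list and among the 9 rises (0.815), so the count and sum are a description. The summed level of the list was 2315 and 3093 per M in the controls and 5628 and 4291 per M in Zfp750_KO. Of 20 genes of the macrophage and monocyte core 11 rose and 1 fell (median 0.79). Csf1r, the receptor for the macrophage growth factor CSF1, was at 4601 and 4888 in control 4M and 7F and at 10150 and 8341 in Zfp750_KO 3F and 6F (0.95), and the complement gene C1qb at 2441 and 2548 against 4799 and 4623 (0.91). Ctss, the cathepsin that trims the class II invariant chain, rose by 1.41 and Fcgr1, a high-affinity Fc receptor, by 1.50. Lyz1, a second lysozyme gene, was the member that fell. It was at 2206 and 2776 against 871 and 555 (-1.81 ± 0.22 SE, adjusted p = 0.001), whereas its neighbour Lyz2, the lysozyme of most macrophages, was at 19880 and 24160 against 36870 and 24390 (0.45, adjusted p = 0.313). Lyz1 and Lyz2 are near-identical copies, so reads may have been split between them. The counts of rises were 0 and 3 without control 4M, 4 and 5 without control 7F, 5 and 9 without Zfp750_KO 3F, and 15 and 18 without Zfp750_KO 6F, for the pan-leukocyte list and the core list respectively.

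Genes of resident dermal macrophages stood apart from the core list. Of 19 tested, 6 fell, 1 rose and 12 did not pass, and the median was -0.41. Timd4, a receptor for dying cells, was at 81.4 and 109 in control 4M and 7F and at 19.2 and 22.7 in Zfp750_KO 3F and 6F (-1.70 ± 0.32 SE, adjusted p = 0.00722). Cd209g, a lectin of the DC-SIGN family, was at 225 and 218 against 33.6 and 71.4 (-1.92). The haemoglobin scavenger receptor Cd163 was at 2360 and 2766 against 1110 and 1615 (-0.93) and the folate receptor Folr2 at 430.5 and 266 against 144 and 187 (-0.99). In each of these 4 genes both Zfp750_KO libraries were below both controls, while groups did not overlap in 54.4% of all tested genes. Of the 19 differences of the list 8 were above 0. Igf1, a growth factor made by macrophages and by fibroblasts, fell by 0.76, and Gas6, a bridge between dying cells and their receptors, fell by 0.89. Mrc1, the mannose receptor, was the gene that rose, from 5866 and 7688 to 14480 and 13140 (1.04). The count of falls was 2 without control 4M, 2 without control 7F, 5 without Zfp750_KO 3F and 11 without Zfp750_KO 6F.

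The same genes can be set against Ptprc in the same library. Timd4 was 1.44% and 1.39% of Ptprc in control 4M and 7F and 0.143% and 0.222% in Zfp750_KO 3F and 6F. Cd163 was 41.8% and 35.2% against 8.27% and 15.8%, and Lyz1 39.0% and 35.4% against 6.49% and 5.42%. In contrast Csf1r stood at 81.4% and 62.2% in the controls and 75.6% and 81.4% in Zfp750_KO, and Mrc1 at 104% and 97.9% against 108% and 128%. Csf1r therefore overlapped between the groups on this scale. Foxp3 was 0.920% and 0.824% against 1.81% and 2.16%, and Il2ra 0.929% and 1.05% against 4.26% and 4.51%. Other leukocyte genes did not rise on this scale. Cd4 was 2.23% and 2.55% against 1.80% and 2.76% and overlapped, and Il6 was 13.4% and 10.3% against 4.31% and 3.98%. These shares are a description, with no test of their own.

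**Figure D2:**
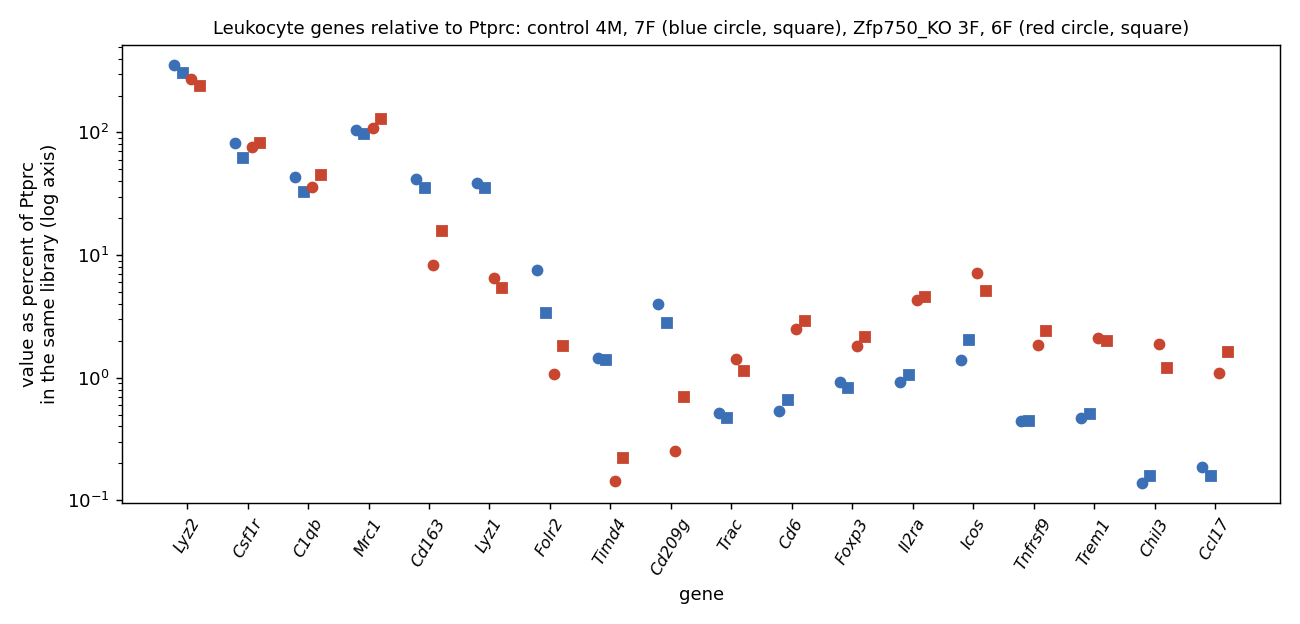
Value of 18 leukocyte genes as a percentage of Ptprc in the same CD45-rich library (log axis), with controls 4M and 7F as blue circle and square and Zfp750_KO 3F and 6F as red circle and square. Cd163, Lyz1, Folr2, Timd4 and Cd209g lie lower in Zfp750_KO, the genes from Trac to Ccl17 lie higher, and Csf1r and C1qb overlap. The 18 genes are a selection, and other leukocyte genes, such as Cd4 and Il6, overlap or lie lower on this scale.

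Of 23 monocyte and inflammatory macrophage genes 9 rose, none fell and 14 did not pass (median 1.09). Trem1, a receptor that amplifies inflammation, was at 26.3 and 39.4 in control 4M and 7F and at 283 and 205 in Zfp750_KO 3F and 6F (2.52 ± 0.30 SE, adjusted p = 0.00089). Clec4e, the lectin Mincle, was at 213 and 363 against 3475 and 897 (2.62), with Zfp750_KO 3F far above 6F. Il1b, the cytokine interleukin-1 beta, rose by 1.73 from 1611 and 2379 to 8380 and 5049, and Acod1, the enzyme that makes itaconate, rose by 2.12. Tnf and Il6, cytokines of the same response, were at 0.61 and -0.67 and did not pass. Of the 18 neutrophil genes listed 8 could be tested. Csf3r, the granulocyte growth factor receptor, rose by 2.14 and the chemokine receptor Cxcr2 by 1.72. Mmp8, a collagenase of neutrophils, was at 2.63 and 8.998 against 115 and 52.3, and Lcn2, a siderophore-binding protein, at 7.88 and 2.25 against 33.8 and 35.8. Mmp8, Lcn2 and S100a8 passed the filter on low values only through the Zfp750_KO libraries, where they were high, so their direction was fixed by the filter and no count of rises is drawn from the list. S100a8, an abundant neutrophil protein, reached no more than 27.1 in any of the 4 libraries (1.07, adjusted p = 0.0891). Of the 23 inflammatory genes Saa3 passed the filter only through the Zfp750_KO libraries, and it is not among the 9 rises. Across the alternative settings Trem1 ranged from 1.71 to 2.79 and Clec4e from 1.65 to 3.59.

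Macrophage genes of lipid uptake rose in part: 7 of 18 rose and 1 fell. Mmp12 (ENSMUSG00000049723, chromosome 9), the macrophage elastase, was at 537 and 571 in control 4M and 7F and at 3768 and 2665 in Zfp750_KO 3F and 6F (2.49 ± 0.20 SE, adjusted p = 0.000147). Trem2, a lipid receptor, rose by 2.19, the scavenger receptor Msr1 by 2.101 and the fatty acid binding protein Fabp5 by 1.38. Gpnmb, a glycoprotein of lysosomes that pigment cells and fibroblasts also make, fell by 0.81. Of 18 mature dendritic cell genes 2 passed the filter only through the Zfp750_KO libraries, and of the other 16 genes 6 rose and none fell. Ccl17 was at 10.5 and 12.4 against 148 and 165 (2.85), its relative Ccl22 at 149.7 and 226 against 654 and 434 (1.47), and Pdcd1lg2, the inhibitory ligand PD-L2, rose by 1.93. Of 22 Langerhans and dendritic cell genes 5 rose and 1 fell, with a median of 0.05, near that of all genes.

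In the lists of antigen presentation and interferon response few genes passed the test. Summed levels of the class II list were 11200 and 13600 per M in control 4M and 7F and 17360 and 18180 per M in Zfp750_KO 3F and 6F. Those of the class I list were 3444 and 3625 against 4399 and 4708 per M, and of the interferon list 1160 and 1270 against 1402 and 1277 per M. The sums were not tested. Of 11 MHC class II genes 1 rose (9.09%, near the 11% of all genes), the transactivator Ciita, by 0.78 (median 0.38). Of 18 class I and loading genes 3 rose (16.7%, median 0.26), among them the class I transactivator Nlrc5 by 0.89. The class II gene H2-Ab1 was at 23720 and 26780 in the controls and at 33330 and 32060 in Zfp750_KO (0.38, adjusted p = 0.339). In the interferon response list 2 of 34 genes rose, the antiviral enzyme Oas3 by 1.12 and the GTPase Gbp4 by 0.96, and 1 fell, the GTPase Iigp1, by 0.88. Its share of calls, 8.82%, is below the 11% over all genes, and its median was 0.13. Isg15, an interferon-induced ubiquitin-like protein, was at 39.4 and 29.2 against 38.3 and 45.5 and overlapped between the groups.

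**Figure D3:**
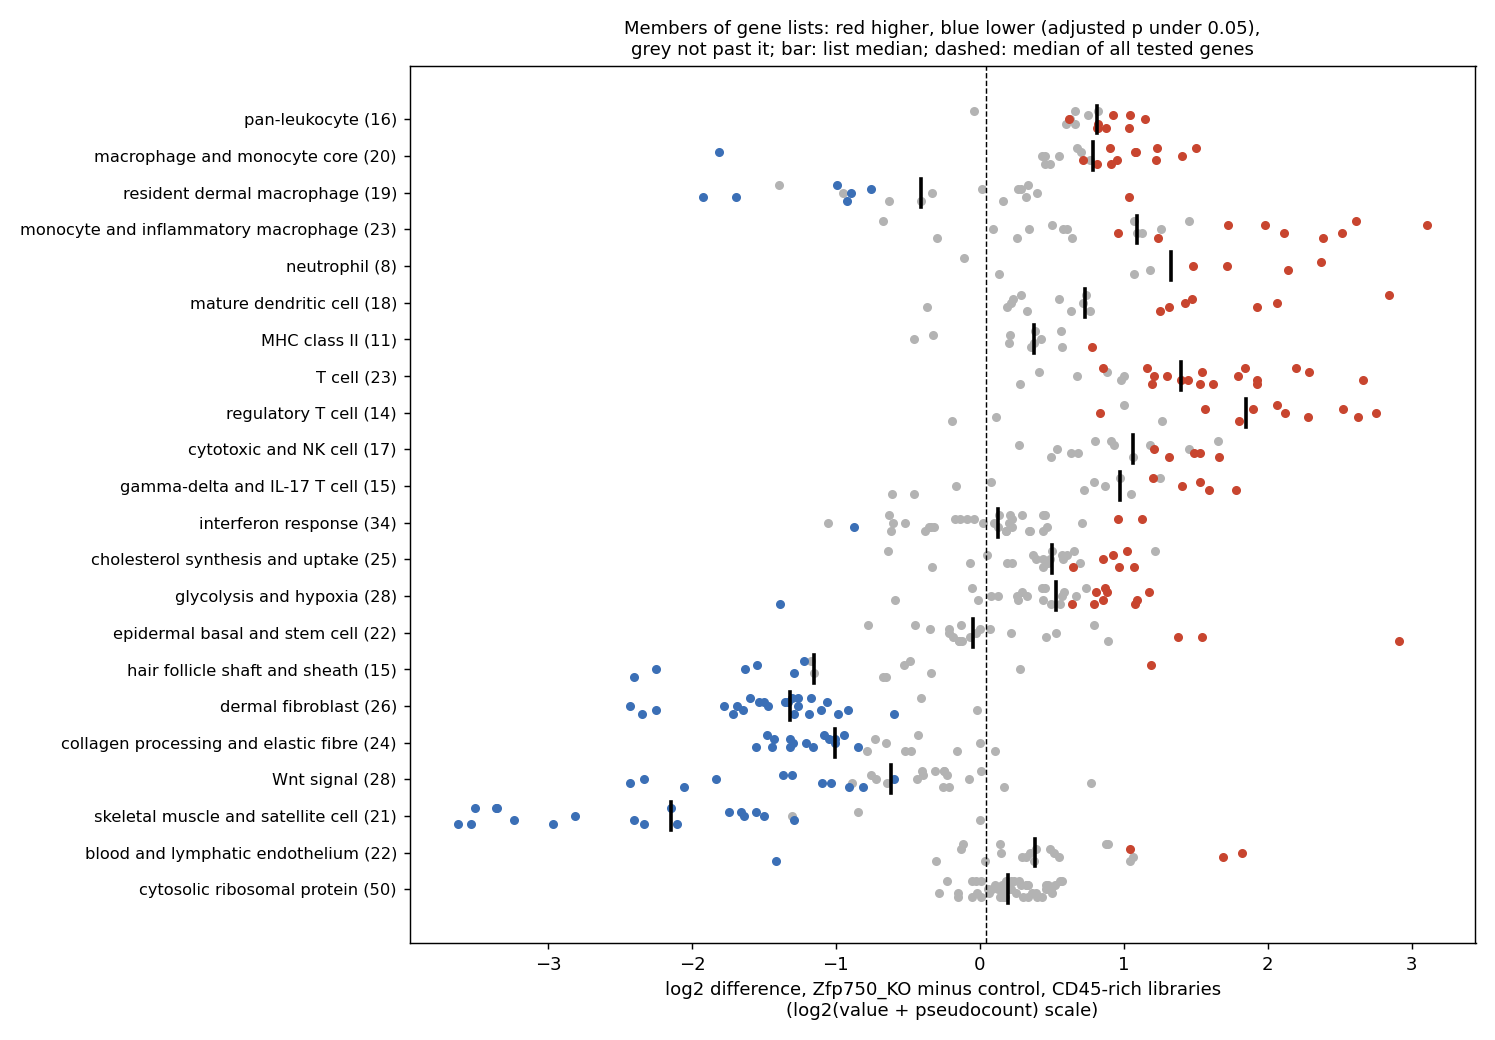
Log2 difference of each tested member of 22 gene lists in the CD45-rich libraries, with genes that passed an adjusted p of 0.05 in red (higher) or blue (lower), others in grey, a bar at the list median and a dashed line at the median of all tested genes. Lymphocyte and inflammatory myeloid lists lie to the right of the dashed line, fibroblast, collagen and skeletal muscle lists to the left, and ribosomal protein genes close to it. Points and medians include genes that passed the filter only through Zfp750_KO: 3 neutrophil, 4 cytotoxic, 2 mature dendritic cell and 1 monocyte gene. They also include 3 muscle genes that passed only through controls. The direction of such genes was fixed by the filter, and none is read from the neutrophil list.

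Chemokines and their receptors were examined as separate lists. Of 21 chemokine receptors 9 rose and 3 fell. Among them Cxcr4, the receptor for CXCL12, rose by 1.64. The 3 that fell, Ackr1, Ackr2 and Ackr3, are atypical receptors that bind chemokines without the usual G protein signal. Ackr3, which fibroblasts express, was at 3291 and 3241 against 1403 and 565 (-1.86). Of 17 CC chemokines 2 rose and 1 fell, the eotaxin Ccl11, by 0.94 (17.6% called, against 11% of all genes). Of 14 chemokines of the CXC, CX3C and XC families 3 passed the filter on low values only through the Zfp750_KO libraries, and of the other 11 genes 1 rose, Cxcl16, and 1 fell. Cxcl5, which attracts neutrophils, is one of those 3 and was at 0 and 2.25 against 77.8 and 51.0. Cxcl16, the ligand of Cxcr6, was at 415 and 456.5 against 2073 and 1532 (2.00).

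Cytokine genes were examined by family. Of 19 genes of the interleukin-1 family and the inflammasome 5 rose and 1 fell. Beside Il1b these included Nlrp3, the sensor of the inflammasome, at 437 and 439 in the controls against 1748 and 1163 (1.68), and the receptor antagonist Il1rn, at 427 and 509.5 against 1638 and 1461 (1.71). Il1r2, the decoy receptor, was the gene that fell (-0.97). Of 20 genes of the interleukin-6 family and the JAK-STAT pathway 5 rose and none fell. Among them were Osm, at 125 and 186 against 1218 and 1077, the kinase Jak3, by 1.29, and Cish, a feedback inhibitor of STAT5 signals, at 679 and 748 against 2102 and 2054 (1.53 ± 0.17 SE, adjusted p = 0.000659). Of 24 genes of the TNF family and NF-kB 2 passed the filter only through the Zfp750_KO libraries, and of the other 22 genes 4 rose, including the inhibitor Nfkbie by 1.11 and the receptor Tnfrsf1b by 0.92. Tnfsf11, a further rise, is among the 2 set aside, so no count over all 24 genes is drawn. Across the alternative settings Nfkbie ranged from 1.01 to 1.24 and Tnfrsf1b from 0.68 to 1.16.

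Skeletal muscle genes had the lowest median of all lists examined, and genes of muscle made up most of the 12 largest falls. Of 21 tested genes 18 fell, none rose and 3 did not pass, with a median of -2.15. Of these, 3 passed the filter on low values only through the controls, and of the other 18 genes 16 fell. The summed level of all 21 was 1125 and 863 per M in control 4M and 7F and 225 and 151 per M in Zfp750_KO 3F and 6F. It was 139 per M in control 4F and 73.2 and 89.9 per M in the CD45-poor Zfp750_KO libraries. Acta1 (ENSMUSG00000031972, chromosome 8), the actin of skeletal muscle, was at 3711 and 2316 in the controls and at 313 and 163 in Zfp750_KO (-3.62 ± 0.29 SE, adjusted p = 0.000147). Atp2a1, the calcium pump of the sarcoplasmic reticulum, was at 1581 and 1076 against 123 and 84.4 (-3.53), and Ckm (ENSMUSG00000030399, chromosome 7), the creatine kinase of muscle, at 936 and 554 against 72.8 and 59.6 (-3.23). In each the higher control was 4M, and both Zfp750_KO libraries lay far below the lower control. Actn3, Pvalb, Myh4, Mybpc2, Myl1, Casq1 and Cacna1s, which build the fast fibre or release and buffer its calcium, had differences from -3.51 to -2.94. Car3, the carbonic anhydrase of slow muscle and of fat cells, fell by 3.35. Of 14 tested adipocyte genes it alone fell, while 1 rose and 12 did not pass (14.3% called, near the 11% of all genes). The part of muscle tissue in these libraries was not tested. No count over all 21 genes is drawn from the fits without 1 library, since 3 of them passed the filter only through the controls. Across the alternative settings Acta1 ranged from -4.07 to -3.18 and Ckm from -3.61 to -2.64.

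The 250 bases before the start of Acta1 and Ckm are shown because the muscle genes fell together and both windows hold the E-box CAGCTG, the form that muscle transcription factors such as MyoD bind. Capitals mark the motif, whose letters read the same on both strands. The regions, from RefSeq on build GRCm38.p6, are chr8:123894776-123895025 on the minus strand for Acta1 and chr7:19410844-19411093 on the plus strand for Ckm.

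Acta1: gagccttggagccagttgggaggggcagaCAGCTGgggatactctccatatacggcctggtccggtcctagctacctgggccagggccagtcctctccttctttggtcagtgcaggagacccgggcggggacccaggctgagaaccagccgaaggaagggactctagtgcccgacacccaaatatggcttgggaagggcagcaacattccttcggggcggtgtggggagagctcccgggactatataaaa
Ckm: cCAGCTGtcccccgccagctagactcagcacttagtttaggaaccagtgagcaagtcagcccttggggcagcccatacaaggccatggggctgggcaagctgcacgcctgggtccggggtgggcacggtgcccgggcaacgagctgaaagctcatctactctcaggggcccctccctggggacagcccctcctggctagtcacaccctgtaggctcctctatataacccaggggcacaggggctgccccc

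Of the 18 muscle genes that fell, 15 matched a RefSeq promoter and 8 of these (53.3%) held CAGCTG, against 14.7% of all 27025 genes with a promoter and 13% of all promoters of the same length. The 18 include Myh2 and Myod1, which passed the filter only through the controls, and neither is among the 8. A match describes the letters of the window and not a site in use.

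Most dermal fibroblast genes fell. Of 26 dermal fibroblast genes 24 fell and none rose, with a median of -1.32, and all 26 differences were below 0. The summed level of the list was 167300 and 102700 per M in control 4M and 7F and 23740 and 58800 per M in Zfp750_KO 3F and 6F. Col1a1, the main collagen of the dermis, was at 869500 and 430000 against 59040 and 243800 (-2.35 ± 0.62 SE, adjusted p = 0.0345), so the libraries of each group were themselves far apart. Steadier falls were seen in Cd34, a surface antigen of reticular fibroblasts, at 8635 and 9414 against 2781 and 2811 (-1.69), and in Dpt, the matrix protein dermatopontin, at 6275 and 6131 against 2374 and 2103 (-1.47). Sfrp2 (ENSMUSG00000027996, chromosome 3), a secreted Wnt modulator of dermal fibroblasts, was at 1636 and 1791 against 267 and 354 (-2.43 ± 0.19, adjusted p = 0.000147). Pdgfra, the receptor that marks fibroblasts, was at 5237 and 5334 against 3603 and 3373 and fell least (-0.60). The fibroblast count was 11 without control 4M, 21 without control 7F, 23 without Zfp750_KO 3F and 24 without Zfp750_KO 6F. As column totals are shared, less fibroblast RNA and more leukocyte RNA are not independent measurements.

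The fall was uneven within fibroblast genes. Relative to Pdgfra in the same library, Igfbp5, an insulin-like growth factor binding protein, was 371% and 278% in control 4M and 7F and 54.8% and 92.8% in Zfp750_KO 3F and 6F. Scara5, a ferritin receptor, was 105% and 109% against 30.6% and 34.4%. In contrast Col6a2, a chain of collagen VI, was 360% and 230% against 174% and 238% and overlapped between the groups, as did the receptor Pdgfrb. On the log2 scale, Igfbp5 had a difference of -2.77 and Scara5 of -2.31 (adjusted p = 0.000207 and 8.34e-05), Sfrp4 of -2.33 and Igfbp6 of -1.91. Of 24 genes of fibroblast subtypes and the dermal papilla 12 fell and 1 rose. The gene that rose was Coch, a secreted matrix protein, at 926 and 943 against 1821 and 1666 (0.89). Apcdd1, a Wnt inhibitor of papillary fibroblasts, was at 1927 and 2156 against 405 and 783 (-1.83).

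Genes that process and cross-link collagen fell with it, 15 of 24 with none higher (median -1.01). Metalloproteinases and their inhibitors were divided: apart from Mmp8, 5 of 19 rose and 8 fell. Those that rose include Mmp12, Mmp13, the interstitial collagenase, at 28.9 and 23.6 against 177 and 85.4 (1.83), and Mmp25, a membrane-bound enzyme of leukocytes (1.02). Those that fell include Mmp2, the gelatinase of fibroblasts, at 11980 and 10140 against 4104 and 4923 (-1.29), and the inhibitors Timp2 (-1.60), Timp3 (-1.73) and Reck (-1.46). Timp1, the inducible inhibitor, was at 15.8 and 14.6 against 54.1 and 51.0 (1.25). Of 23 wound and matricellular genes 11 fell, among them Ccn1, a matrix protein of healing wounds, by 1.27, and 1 rose. The collagen processing count was 5 without control 4M and 14 to 16 in the other fits without 1 library.

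Ligands and receptors that mesenchymal cells use fell more often than they rose. Of 29 genes of the TGF-beta, activin and BMP pathways 12 fell and 2 rose. Tgfb2, a TGF-beta ligand, was at 1154 and 1040 in control 4M and 7F and at 208.5 and 224.5 in Zfp750_KO 3F and 6F (-2.28 ± 0.19 SE, adjusted p = 0.000147), and Chrdl1, a BMP antagonist, at 659 and 884 against 234 and 156 (-1.93). Of 28 Wnt genes 11 fell and none rose, among them the ligands Wnt2 (-2.06), Wnt10b (-1.37) and Wnt5a (-1.31), the receptors Fzd1, Fzd2 and Fzd4 (-1.03 to -0.59) and the secreted antagonists Sfrp1, Sfrp2 and Sfrp4. The other 17 genes of the list did not pass, among them the ligands Wnt4 and Wnt11, the receptor Fzd7 and the antagonists Dkk2, Dkk3 and Wif1. Of 32 growth factors and their receptors 8 fell and 3 rose, the largest rise being Nrg1. Without control 4M 4 genes of the TGF-beta list and 5 of the Wnt list fell, and without control 7F 7 and 5.

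Of 29 nuclear receptor and retinoid genes 10 fell, 3 rose and 16 did not pass. Esr1, an oestrogen receptor, was at 2605 and 2147 in the controls and at 619 and 658 in Zfp750_KO (-1.87 ± 0.18 SE, adjusted p = 0.000366). Pgr, the progesterone receptor, was at 110.3 and 174 against 29.3 and 26.9 (-1.92). In both genes control 4M and control 7F differed by less than the gap to Zfp750_KO. Aldh1a1, which makes retinoic acid, fell by 2.00. The 3 that rose were Rara, a retinoic acid receptor, by 0.99, Vdr, the vitamin D receptor, by 0.95, and Dhrs9, a retinol dehydrogenase, by 0.98.

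Epithelial genes come from the lineage in which Lrig1-driven Cre acts. The 22 basal and stem cell genes summed to 841 and 1006 per M in the controls and to 811 and 1435 per M in Zfp750_KO, against 1983 to 3852 per M in the CD45-poor libraries. The sums of the differentiation list lay between 816 and 1045 per M in the CD45-rich and between 780.5 and 1137 per M in the CD45-poor libraries, and those of the sebaceous list between 1305 and 1780 and between 1080 and 1462 per M. Of the 22 basal genes 3 rose and none fell (13.6%), near the 11% of all genes. They were Plet1, Cdh1, the adhesion protein E-cadherin, by 1.38, and Epcam, another adhesion protein of epithelia, by 1.54. Krt5 was at 996 and 1431 against 727 and 1652 (-0.12), and Krt14, its partner keratin, at 578 and 642 against 432 and 1631 (0.46), and both overlapped between the groups. Krt14 passed without Zfp750_KO 3F (1.40) and Krt5 without Zfp750_KO 6F (-0.71). Of 14 tested genes of epidermal differentiation 2 rose and 2 fell. Prdm1, a repressor found in sebaceous, keratinocyte and lymphoid cells, rose by 1.57, and Tgm1, the enzyme that cross-links the cornified envelope, by 1.11, while the desmosomal cadherin Dsg1a and the envelope plakin Ppl fell by 1.72 and 0.99. Krt1, a keratin of differentiated layers, did not pass the filter on low values.

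Of 15 genes of the hair shaft and sheath 6 fell, 1 rose and 8 did not pass (median -1.15). Krt75, a keratin of the companion layer, was at 287.5 and 934 in control 4M and 7F and at 55.2 and 139 in Zfp750_KO 3F and 6F (-2.40), and Krt71, of the inner root sheath, at 457 and 378 against 125 and 145 (-1.55). The groups did not overlap in either gene, as in 54.4% of all tested genes, although the 2 controls differed in Krt75 by more than 3 times. In the sebaceous list 3 of 21 genes fell and 1 rose (19% called, against 11% of all genes). The falls included the desaturases Fads6, by 1.48, and Fads2, by 0.89. Of the 34 alarmin genes of stressed epithelium 8 could be tested, and 2 rose of the 6 that did not pass the filter through 1 group only. Without Zfp750_KO 6F, the library with more basal keratin than 3F, 6 of the basal genes fell, and without Zfp750_KO 3F 7 of them rose.

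Of the metabolic lists, those of glycolysis and cholesterol held more rises than falls and that of detoxification more falls. Of 28 glycolysis and hypoxia genes 9 rose and 1 fell (median 0.53). The lactate carrier Slc16a3 was at 648 and 634 in control 4M and 7F and at 1883 and 1139 in Zfp750_KO 3F and 6F (1.18), and the glucose carrier Slc2a1 at 616 and 660.3 against 1451 and 1280 (1.08). Of 25 genes of cholesterol synthesis and uptake 6 rose and none fell (median 0.50), including the demethylase Cyp51 by 1.07 and the isomerase Idi1 by 0.97. Of 28 genes of detoxification and oxidative stress 12 fell and 1 rose. The cytochrome P450 Cyp2f2 was at 496 and 629.8 against 42.8 and 91.6 (-2.92), and the carboxylesterase Ces2g fell by 1.82. Slc7a11, the cystine carrier that feeds glutathione synthesis, was the gene that rose, from 168 and 308 to 1384 and 729 (2.08). Without control 4M 2 glycolysis genes and 1 cholesterol gene rose.

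Cell cycle genes lay above the median of all genes, but 1 of 36 passed, Mki67, a marker of dividing cells, at 630.2 and 659 against 1141 and 1151 (0.82). The list median was 0.35, and 32 of the 36 differences were above 0. None of 50 cytosolic ribosomal protein genes passed in limma (median 0.20), against 11% of all genes, and 5 of them had an unadjusted p under 0.05.

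Vessel and smooth muscle lists held calls in both directions, 18.2% and 30% of their genes against 11% of all tested genes. Of 22 endothelial genes 3 rose and 1 fell. Flt1, a VEGF receptor, was at 413.5 and 534 in the controls and 852 and 1130 in Zfp750_KO (1.04), and Tek, the angiopoietin receptor, at 648.5 and 887.5 against 307 and 251 (-1.41). Pecam1, a general marker of endothelium, was at 372 and 294 against 331 and 562 and overlapped (0.38). Of 20 smooth muscle and pericyte genes 3 rose and 3 fell. The contractile genes Tagln and Acta2 rose by 1.65 and 1.32, while the intermediate filament gene Des, which skeletal muscle shares, fell by 1.55. Among 20 adhesion genes of neurons 3 passed the filter on low values through 1 group only, and of the other 17 genes 2 rose and 6 fell. Opcml was at 1101 and 1013 against 166 and 178 (-2.54 ± 0.19 SE, adjusted p = 0.000114), and Chl1 at 184 and 174 against 752 and 930.4 (2.15). Cbln1, a secreted synapse organizer, was at 0 and 1.13 against 38.3 and 51.6. Its controls held no more than 1 read and it passed the filter only through the Zfp750_KO libraries, so no fitted difference is given. Without Zfp750_KO 3F 12 endothelial genes rose.

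**Figure D4:**
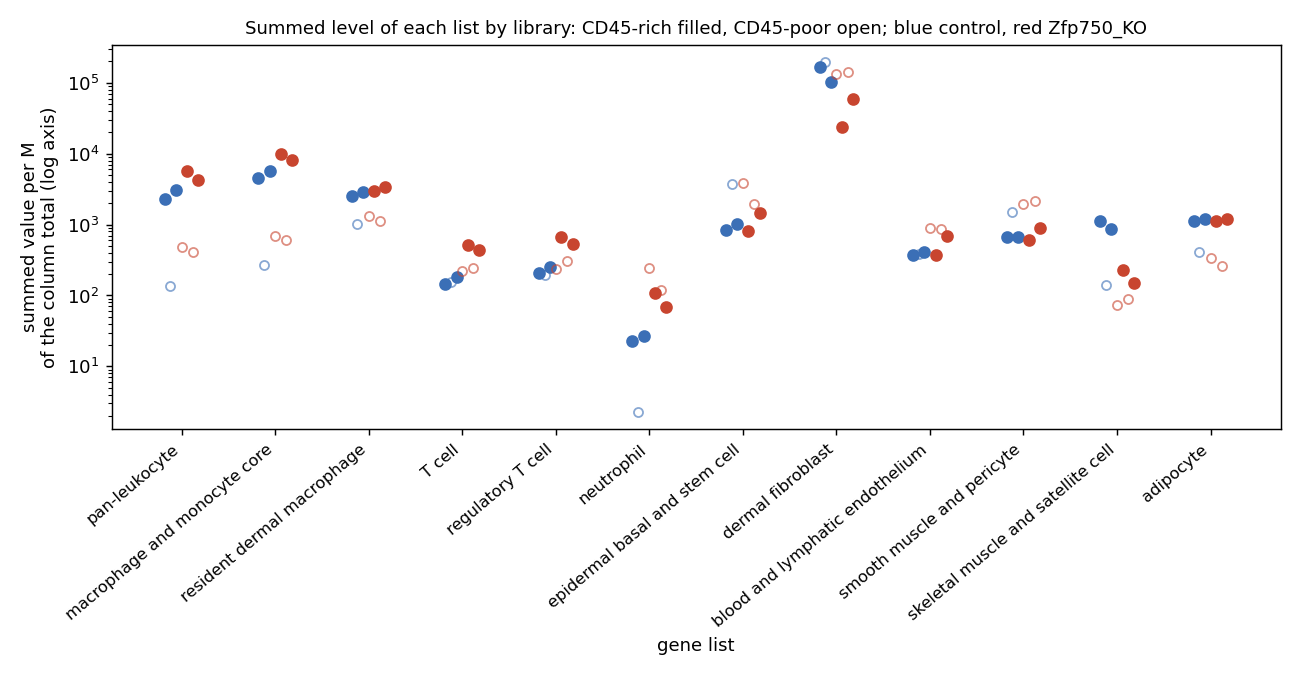
Summed value of the tested members of 12 gene lists per M of the column total (log axis) in each library, with CD45-rich libraries filled, CD45-poor libraries open, controls blue and Zfp750_KO red. Within the CD45-rich libraries T cell sums are higher and fibroblast and skeletal muscle sums lower in Zfp750_KO, while basal epidermal and adipocyte sums overlap between the groups. The muscle sum includes 3 genes that passed the filter only through controls. The neutrophil sum includes 3 genes that passed only through Zfp750_KO, so no direction is read from it.

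The CD45-poor libraries, Zfp750_KO 1M and 2M against control 4F, share no library with the CD45-rich comparison. Their control is 1 library, whose spread is assumed in the fit to equal that within the other groups, and the libraries differ in sex, since control 4F is named F and both Zfp750_KO are named M, so genotype, sex and the 1 control library cannot be told apart there. Of the 853 genes higher in CD45-rich Zfp750_KO, 693 (81.2%) were also higher in the CD45-poor comparison, against 51.5% of all tested genes, and 237 passed there under that assumption. Of the 1187 lower genes 750 (63.2%) were also lower, against 48.5% of all tested genes, and 174 passed. In limma 823 genes (4.43%) were called higher and 391 (2.11%) lower in the CD45-poor comparison. The CD45-poor Zfp750_KO libraries also held more leukocyte RNA than control 4F, with pan-leukocyte sums of 484 and 407 per M against 138 per M, so immune rises there go with a difference in leukocyte content whose part was not tested.

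The differences of 8 genes, chosen after their values were seen, are given side by side. Il2ra was at 2.76 in the CD45-rich and 2.69 in the CD45-poor libraries, Cd6 at 2.66 and 2.57, and Chl1 at 2.15 and 3.43. Among lower genes Opcml was at -2.54 and -2.69, Sfrp4 at -2.33 and -2.22, Igfbp6 at -1.91 and -2.63, Esr1 at -1.87 and -3.09, and Scara5 at -2.31 and -3.49. In none of these 8 genes did the difference between the comparisons pass the test, which does not show that the effects were equal.

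The difference itself was tested as an interaction in a limma fit of all 7 libraries in 4 groups, with the same assumption for control 4F. In 779 genes (4.2%) the Zfp750_KO minus control difference was not the same in both sets of libraries, 155 (0.835%) more positive and 624 (3.36%) more negative in the CD45-rich libraries. Of the 2040 genes called in the CD45-rich libraries 399 were among them. Sfrp2 stood out: it was at 77.4 in control 4F and at 3686 and 1978 in Zfp750_KO 1M and 2M, a difference of 4.92, where the CD45-rich libraries had -2.43 (difference -7.36, adjusted p = 3.53e-05). Plat, the tissue plasminogen activator, had -1.40 in the CD45-rich and 2.89 in the CD45-poor libraries, and Slc7a11 2.08 and -1.77. Mmp13 had 1.83 and 7.47, reaching 8728 and 3510 in Zfp750_KO 1M and 2M. Mki67 had 0.82 and -0.98, and the cell cycle list had medians of 0.35 and -0.89. The dermal fibroblast list had medians of -1.32 and -0.06, and 11 of its 26 genes were called different. The count of 779 was 225 without control 4M and 349 without control 7F.

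**Figure D5:**
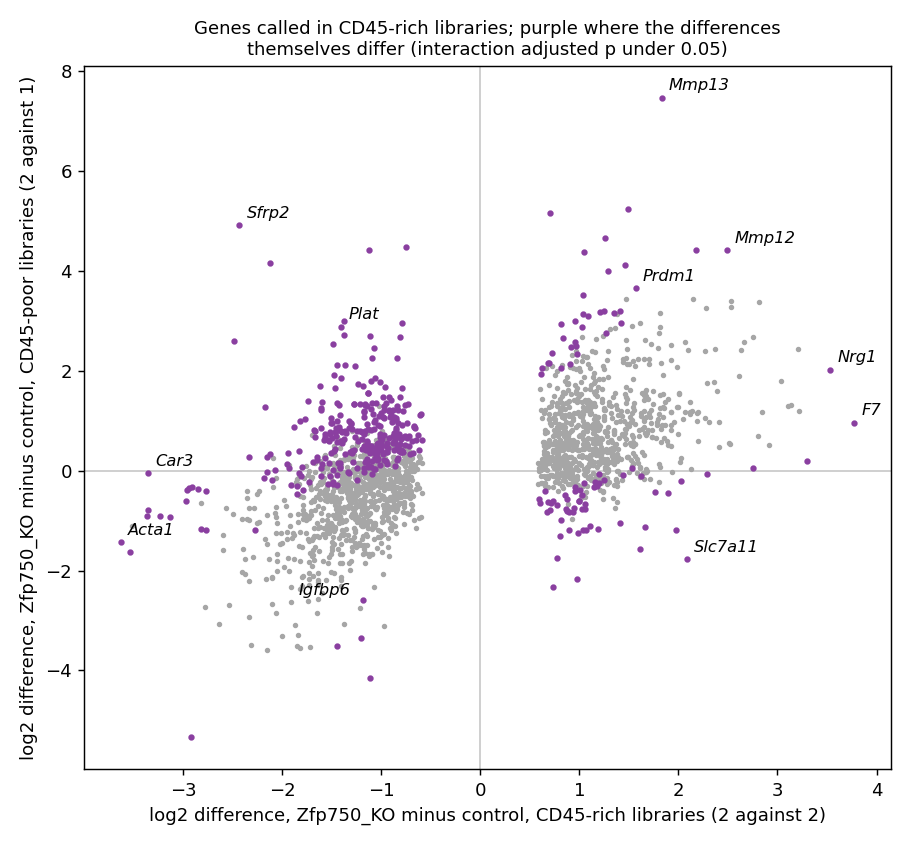
Log2 difference between Zfp750_KO and control in the CD45-poor libraries (2 against 1, y axis) against that in the CD45-rich libraries (2 against 2, x axis) for the 2040 genes called in the latter, with the 399 genes whose 2 differences themselves differ in purple. Genes at the lower left and upper right have the same direction in both comparisons, and Sfrp2, Plat and Slc7a11 have opposite directions.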

How the data were processed

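Sorted skin cells were measured by bulk RNA-seq in 7 libraries. The signal in the file that the authors deposited consists of normalized counts, neither raw counts nor CPM, over 25322 genes. TopHat2 2.1.0 and Partek 9.0.20.0202 are named in the submitters' processing notes, while genome build, normalization method and strand setting were not stated there. Column names give the group, so libraries are named by them and could not be tied to single samples. Reads did not come out whole for nearly all genes, so no count test was run. Of the rows, 713 have no gene name.

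Tests used log2(value + 11.9), in which 11.9 equals 1 per M of a median library. Genes with at least 1 per M in at least 2 of the 4 CD45-rich libraries were fitted with limma 3.58.1 in R 4.3.3 (moderated test with an intensity trend, two-sided, Benjamini-Hochberg adjusted p under 0.05, 2 residual degrees of freedom). Of the tested genes 340 passed the filter only through Zfp750_KO and 357 only through controls, and list counts in the text leave such members out where named. A fold change on this scale understates the change of low genes. A second fit took all 7 libraries in 4 groups and gave the interaction. Data for the 4 CD45-rich libraries were also simulated, with 18557 genes and a single dispersion of 0.0145. In these, 100 genes were changed 2-fold and 100 were changed 4-fold. There 88% of 2-fold and 100% of 4-fold changes were recovered and 4.08% of calls were false. In the measured libraries 11% of tested genes were called. Beyond counting noise, control 4M and 7F differed in 38.6% of genes over 20 reads, and Zfp750_KO 3F and 6F in 55.5%. The recovery and false-call rates therefore describe the simulation and were not measured for these libraries. Lists were described by counts and medians beside those of all genes tested.

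The libraries, the 54 gene lists and the comparisons were chosen with earlier results of these data known. Genes were named by rule: Zfp750, Lrig1, Ptprc and Cd74, the 12 largest rises and the 12 largest falls among called genes whose higher group averaged 5 per M or more, and up to 4 called members of a list with the largest differences. Other genes in the text were chosen after their values were seen. Alternatives were other pseudocounts, filters, scalings and moderation, a threshold on the difference, the 7-library fit and each library left out. Leaving out a library leaves 1 in its group, which is then assumed to vary like the other group. A few genes of the lists are counted but not reported here by name.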

Additional observations from a re-analysis of the deposited data

Results flagged for a closer look

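For 44 genes of the text, the Zfp750_KO minus control difference was not the same in the CD45-rich and the CD45-poor libraries in the limma interaction test (adjusted p under 0.05). Values are the CD45-rich minus the CD45-poor log2 difference. The CD45-poor control is 1 library, whose spread is taken from the other groups, and it is named F against 2 Zfp750_KO libraries named M, so sex and genotype cannot be told apart there, and Xist was at 12.63.

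Muscle genes were more negative in the CD45-rich libraries, where the controls held more muscle RNA than any CD45-poor library, with Acta1 at -2.20, Atp2a1 -1.90, Cacna1s -2.59, Car3 -3.31, Casq1 -2.56, Ckm -2.32, Mybpc2 -2.19, Myh4 -2.56, Myl1 -2.36 and Pvalb -2.46. Fibroblast and matrix genes were also lower on this scale, with Sfrp2 at -7.36, Mmp13 -5.64, Plat -4.29, Col6a2 -2.90, Pdgfrb -2.39, Dpt -2.25, Wnt5a -2.24, Mmp2 -2.13, Chrdl1 -1.98, Timp1 -1.94, Apcdd1 -1.79, Pdgfra -1.73, Ccn1 -1.68, Igfbp5 -1.58, Timp2 -1.50 and Tgfb2 -1.09.

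Among myeloid genes Mmp12 was at -1.93, Ctss at -1.80, Lyz2 at -1.78, Lyz1 at -1.71, C1qb at -1.57 and Gpnmb at -2.28. Flt1 was at -3.33 and Prdm1 at -2.09. Cbln1 is also among the flagged genes, but no value is given for it. It passed the filter only through the CD45-rich Zfp750_KO libraries, so the filter fixed the direction of its CD45-rich difference. Values were positive for Slc7a11 at 3.85, Mucl1 at 3.11, F7 at 2.81, Cyp2f2 at 2.41, Mki67 at 1.80, Vdr at 1.70, Nrg1 at 1.51 and Cish at 1.47. The part of leukocyte and fibroblast content in these differences was not tested.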

How the results depend on the processing

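No gene of the 2040 changed direction in the 14 alternative settings, many of which could not have reversed a called gene. Against 853 higher and 1187 lower genes, rescaling to the same column total gave 1287 higher, moderation without the intensity trend gave 307 and 558, and a log2 threshold of 1 gave 17 and 24. Fits without 1 library ranged from 241 to 1421 higher and from 367 to 1564 lower. Zfp750 passed at the same difference of -1.17 in the 7-library fit, and it ranged from -1.63 to -0.72 without 1 library, passing at -1.63 without Zfp750_KO 6F. The 779 genes that differed between the CD45-rich and CD45-poor comparisons became 248 without the trend and ranged from 225 to 953 without 1 library, and control 4F could not be left out, as it is the only CD45-poor control. No gene passed in a setting where its sign changed, although Krt14 passed at 1.40 without Zfp750_KO 3F, and Il17a at 1.89 and Krt5 at -0.71 without Zfp750_KO 6F. With the same column total Ddx3x was at 0.12, Krt5 at 0.0029 and Rplp0 at 0.0696, and with quantile normalization Ddx3x was at 0.0631 and Rpsa at -0.00957. Without 1 library Ddx3x ranged from -0.33 to 0.31, Krt5 from -0.71 to 0.46, Krt14 from -0.49 to 1.40, Rplp0 from -0.12 to 0.0040, Rpsa from -0.0135 to 0.0291, Il10 from -0.0319 to 0.25, Il17a from -0.15 to 1.89 and Ifng from -0.00846 to 1.09. The cause of these changes was not tested. Of the other values of named genes and list medians, 3387 stayed on the same side, 514 lost the call, 13 gained it and 129 medians moved by more than the spread between libraries. No paired analysis was possible because the groups share no number in the column names. With 2 libraries a group, small differences could not be resolved.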
